A study of Mus musculus with 30 samples.

Results

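Osteopontin and its receptors were followed in the livers of mice that lacked the transcription factor CEBPA in hepatocytes. The genes were *Spp1*, which encodes osteopontin (OPN), the receptor gene *Cd44*, and the integrin subunit genes *Itgav*, *Itgb1*, *Itgb3*, *Itgb5*, *Itgb6*, *Itgb8*, *Itga4* and *Itga9*. They were chosen by symbol as the ligand and a set of receptor genes known to bind it. The choice was made with earlier results of these data known. The authors had already reported the rise of *Spp1* in these livers, so counts that include it are not an independent result. All 10 were found among the 55450 genes of the count table, each once. All are annotated as protein coding in GENCODE M21.

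The series held 30 liver poly(A) RNA-Seq libraries, each from 1 male mouse kept on a diet rich in fat, cholesterol and fructose (HFCFD), with 5 mice in each of 6 groups. In HFCFD2W, *Cebpa* fl/fl mice (labelled Cre-) and *Cebpa* ΔHep mice (Cre+), which carry a constitutive albumin-cre, were fed for 2 weeks. In HFCFD8W+T10D, *Cebpa* fl/fl and tamoxifen-inducible *Cebpa* ΔHep,ERT2 mice (albumin-ERT2-cre) were fed for 8 weeks, and by the labels both genotypes received tamoxifen for 10 days. In HFCFD12W+T10W, the same 2 genotypes were fed for 12 weeks and then for 10 more weeks with tamoxifen. Both Cre drivers act through the albumin promoter, so that the deletion is directed at hepatocytes. Whether other liver cells keep *Cebpa* was not measured in these whole-liver libraries. The series describes the experiments as separate batches, and levels of different experiments therefore cannot be told apart from batch. The age of the mice is not given in the sources used here.

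Library totals lay between 7996127 and 10257366 counts. Of the *Cebpa* fl/fl mean, 2.68%, 11.9% and 18.6% of *Cebpa* mRNA remained in the knockout livers of the 3 experiments in that order, and every knockout liver lay below every control. Hepatocyte markers such as *Alb* were abundant in all groups. *Cebpa* ΔHep,ERT2 replicate 2 of HFCFD8W+T10D held the highest level in its group for 6 of the 10 genes, and calls of that experiment are given with their range when single mice, this one included, are left out.

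OPN is a secreted, acidic phosphoprotein of the extracellular matrix that also acts as a cytokine. It binds αv integrins (αvβ1, αvβ3, αvβ5, αvβ6 and αvβ8) through an Arg-Gly-Asp motif, it binds α4β1 and α9β1 through a neighbouring stretch that thrombin cleavage exposes, and it is a ligand of the hyaluronan receptor CD44. In the liver, OPN is made by cholangiocytes, by macrophages and by injured hepatocytes, and it is known for its part in fibrosis. αvβ6 and αvβ8 are also known as activators of latent TGF-β.

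The coding stretch of *Spp1* with the Arg-Gly-Asp codons is shown because most receptors described here meet the ligand at or beside it. It lies at chr5:104439436-104439534 (GRCm38, plus strand) in exon 7 of transcript *Spp1*-202, and is read from the GENCODE M21 transcripts with those 3 codons in capitals.
Spp1 Arg-Gly-Asp region: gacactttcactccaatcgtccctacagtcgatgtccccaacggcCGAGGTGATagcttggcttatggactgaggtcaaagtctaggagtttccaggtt

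The 250 bases before both RefSeq start sites of *Spp1* (GRCm38.p6, plus strand) are shown because the deleted gene encodes a DNA-binding factor of the C/EBP family. The first window, chr5:104434861-104435110, ends just before the annotated gene. The second, chr5:104435942-104436191, lies in the first intron and within the exon of the gene model *Gm42793*. Capitals mark TTGCNNAA, the core of a C/EBP site, searched on both strands.
Spp1, first start: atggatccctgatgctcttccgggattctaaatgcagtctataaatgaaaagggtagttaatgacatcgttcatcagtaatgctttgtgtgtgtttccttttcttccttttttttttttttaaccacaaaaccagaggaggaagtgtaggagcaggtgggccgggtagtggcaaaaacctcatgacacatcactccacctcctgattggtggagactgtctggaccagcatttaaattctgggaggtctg
Spp1, second start: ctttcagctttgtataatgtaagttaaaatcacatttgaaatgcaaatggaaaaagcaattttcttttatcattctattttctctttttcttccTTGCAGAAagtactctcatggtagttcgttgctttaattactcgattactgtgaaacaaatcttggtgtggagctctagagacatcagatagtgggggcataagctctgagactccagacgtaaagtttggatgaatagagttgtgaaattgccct
The core occurred 1 time in the second window, beginning 156 bases before that start, and not in the first. RefSeq windows were found for 9 of the 10 genes, 11 windows in all, and the core was in no other of them. Among all 32851 windows of the same length it occurred in 9.56%. A match of these letters is a description of the window and not evidence of binding.

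*Spp1* was higher in the knockout livers of all 3 experiments, and *Cd44* with it. In HFCFD2W, 2 of the 8 genes with enough counts to test rose and 0 fell (edgeR's quasi-likelihood test, adjusted p under 0.05 over all genes tested), against 8.6% of all 11068 genes tested that rose and 8.09% that fell. In HFCFD8W+T10D, 5 of 8 rose and 0 fell, where 10.3% of 11990 genes rose and 6.85% fell. In HFCFD12W+T10W, 9 of 10 rose and 0 fell, where 27.4% of 12463 genes rose and 23.8% fell. *Itgb6* and *Itgb8* passed the filter on low counts there only through the knockout livers, where they were high, and of the 8 genes tested in every experiment 7 rose. The genes that also passed a 2-fold change numbered 1, 2 and 6 in the same order, beside 1.69%, 4.09% and 14.3% of all genes. The 6 include *Itgb6* and *Itgb8*, and the others are *Spp1*, *Cd44*, *Itga4* and *Itga9*. The median log2 fold change over the tested genes was 0.37, 0.62 and 1.17, where the median of all genes was 0.01 in each. The 1.17 also covers *Itgb6* and *Itgb8*, so the 3 medians are not over the same genes. Levels below are CPM (counts scaled to library size) with library totals scaled by the TMM method unless TPM (the length-corrected RSEM value) are named, and errors are SD over 5 mice.

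**Figure D1:**
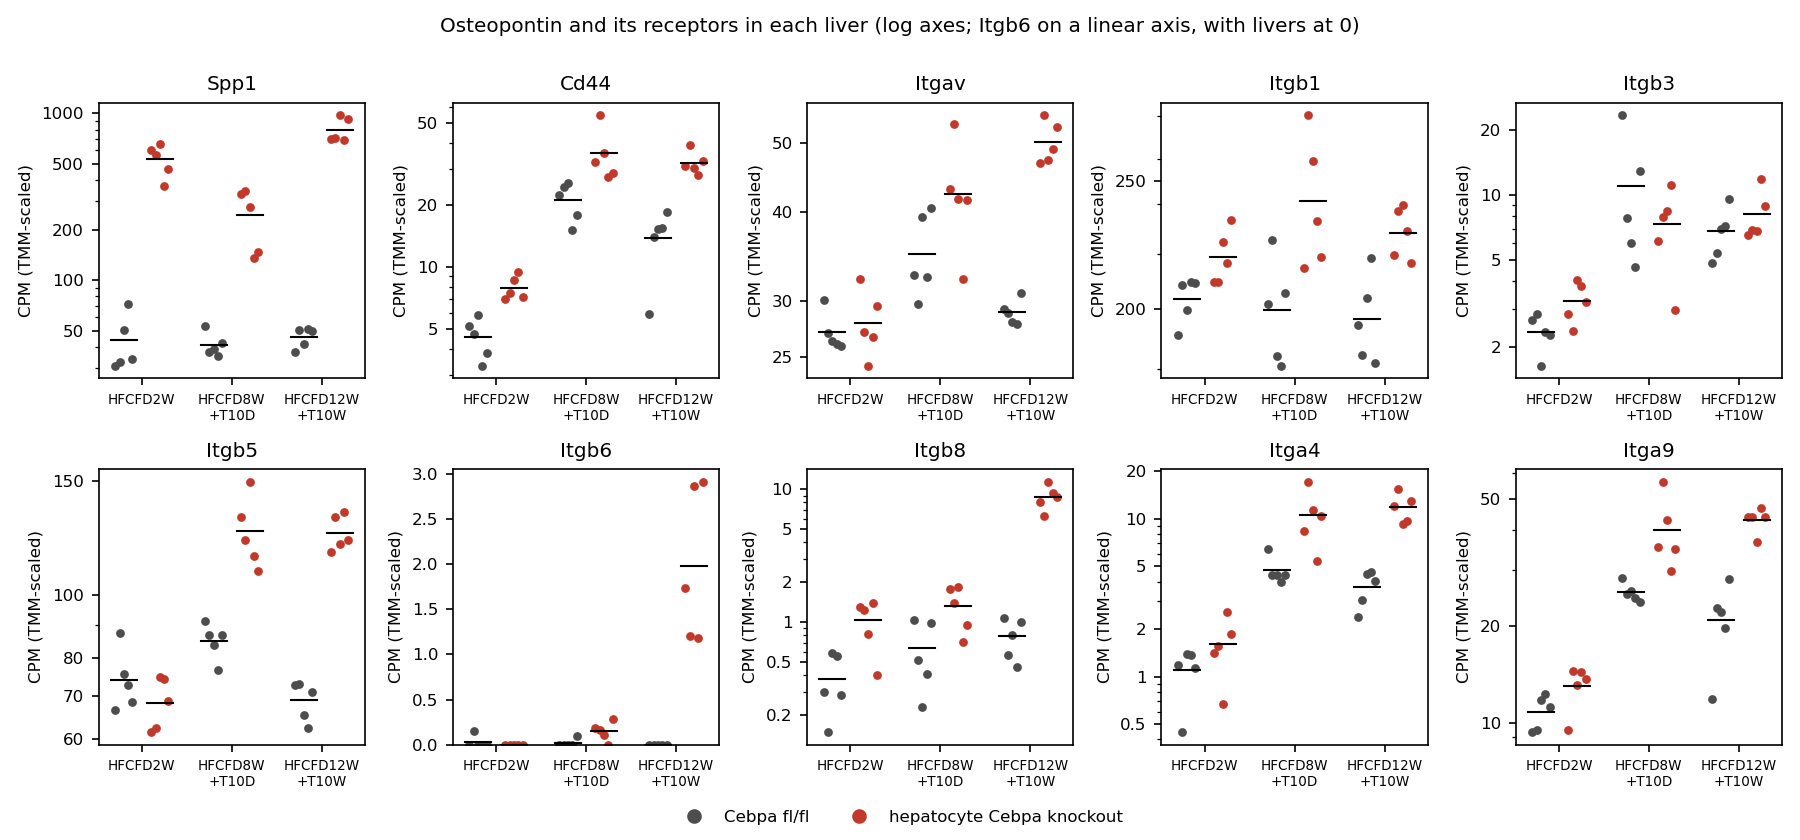
Level of each gene in each liver in CPM (log axes, except for Itgb6), with grey points for *Cebpa* fl/fl and red points for knockout livers and a line at each group mean. The 5 knockout livers of *Spp1* lay above all controls in every experiment, whereas *Itgb6* and *Itgb8* stood out in the knockout livers of HFCFD12W+T10W.

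*Spp1* (chr5:104435118-104441050, plus strand), the ligand, was measured in HFCFD2W at 30.7, 32.3, 50.5, 71.7 and 33.8 CPM in the *Cebpa* fl/fl livers and at 600.5, 564.7, 657.2, 367.1 and 462.7 CPM in the *Cebpa* ΔHep livers. The lowest knockout liver was thus far above the highest control. In HFCFD8W+T10D the controls were at 52.9, 37.0, 38.9, 35.2 and 42.1 CPM and the *Cebpa* ΔHep,ERT2 livers at 327.8, 344.6, 273.5, 136.8 and 147.9 CPM. These knockout livers fell into a higher trio and a lower pair, all above the controls. The controls of HFCFD12W+T10W were at 37.3, 50.4, 41.6, 51.3 and 49.4 CPM and the knockouts at 701.9, 710.7, 972.9, 692.3 and 920.3 CPM. The log2 fold changes were 3.60 (SE 0.24, adjusted p = 1.72e-06), 2.59 (SE 0.26, adjusted p = 5.47e-05) and 4.16 (SE 0.14, adjusted p = 4.43e-09). Without replicate 2 of the *Cebpa* ΔHep,ERT2 mice or any other single mouse, the value of HFCFD8W+T10D stayed between 2.43 and 2.74.

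The order of the 6 groups was read from log2 CPM, with neighbouring groups compared by exact two-sided permutation tests, whose smallest possible p is 0.00794, adjusted over the 46 neighbour pairs tested for the 10 genes. The *Cebpa* fl/fl groups made up the lower end for *Spp1* and did not differ beyond their spread (adjusted p = 0.976 between HFCFD8W+T10D and HFCFD2W and 0.721 between HFCFD2W and HFCFD12W+T10W). The knockout livers of HFCFD8W+T10D, HFCFD2W and HFCFD12W+T10W followed in rising order, each without overlap with the group before it (adjusted p = 0.0365 at each step). The genotype effect itself was 1.54 larger on the log2 scale in HFCFD12W+T10W than in HFCFD8W+T10D (SE 0.33, adjusted p = 0.00381, interaction in 1 edgeR fit of all 30 libraries), a test that 10.5% of 12964 genes passed. It differed by -1.02 between HFCFD8W+T10D and HFCFD2W (SE 0.33, adjusted p = 0.0435, 11.2% of genes passing), a call that was lost under upper quartile normalization (adjusted p = 0.0527) and in 13 of the 20 fits without 1 mouse.

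By TPM, which allows genes to be compared, *Spp1* changed its place among all liver transcripts. Its median rank was 2286 in the controls of HFCFD2W and 210 in the knockouts, 1912 and 415 after the short course of tamoxifen, and 1637 and 106 after the long one. The ratio of *Spp1* TPM to the summed TPM of the 9 receptor genes had medians of 0.301, 0.304 and 0.409 in the 3 control groups and of 4.99, 1.41 and 4.28 in the matching knockout groups, without overlap between genotypes. The ligand transcript was therefore less abundant than its receptor transcripts together in every control group, and more abundant at the median of every knockout group. The gene model *Gm42793* on the same strand shares exon sequence with *Spp1*, and took at most 3.08 counts in any library.

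Markers of other liver cell types that express *Spp1* were summed in the same libraries. The cholangiocyte list (8 genes) summed to 10.8 to 14.8 CPM in the controls and 10.2 to 15.6 CPM in the knockouts of HFCFD2W, so that the genotypes overlapped there, and 0 of the 2 markers tested passed. *Cftr*, *Cldn7* and *Krt7* of this list were at 0 counts in at least 1 liver of that experiment. The list summed to 12.9 to 20.2 against 19.5 to 26.1 CPM after 10 days of tamoxifen, with overlap. In HFCFD12W+T10W it summed to 9.38 to 12.8 against 47.6 to 77.4 CPM, and 7 of the 7 tested rose. The tested set there includes *Cftr*, which had at most 1 count in controls and 33 to 76 in knockouts. It passed the filter on low counts through the knockouts, and *Cldn7* too was tested in no other experiment. After 10 days of tamoxifen 2 of 5 rose, *Epcam* (2.57) and *Sox9* (1.00), while *Krt19* (-0.51) and *Krt7* (-0.19) did not pass. The lipid-associated macrophage list (6 genes) overlapped in HFCFD2W, at 27.7 to 63.7 and 32.2 to 66.5 CPM, and *Trem2* and *Gpnmb* of this list had at most 11 counts in any liver there. It ran from 26.1 to 50.9 CPM in controls and from 51.0 to 152.6 CPM in knockouts of HFCFD8W+T10D, and the matching ranges were 25.4 to 44.3 and 153.2 to 209.2 CPM after the long course of HFCFD12W+T10W. The macrophage list (8 genes) summed to 152.9 to 194.6 CPM in controls and 176.2 to 272.2 CPM in knockouts of HFCFD2W, with overlap, but 3 of its 8 markers rose there (*Cd68* by 0.70, *Csf1r* by 0.38 and *C1qa* by 0.35 on the log2 scale). In the inducible experiments 5 of the 8 rose in each, and 0 and 2 fell. *Spp1* was higher by 3.60 in HFCFD2W, and the part of these cell types in the *Spp1* results was not tested. Of the 8 hepatocyte markers 4 and 6 fell in the 2 inducible experiments and 0 rose. In HFCFD2W 1 rose, *Tat* (1.52), and 1 fell, *Asgr1* (-0.27), and the sum of the list overlapped between genotypes. Of the 8 stellate cell markers 0, 2 and 8 rose, and of the 6 endothelial markers 0, 1 and 2 fell, in the 3 experiments. All these marker counts stand beside 8.6%, 10.3% and 27.4% of all genes that rose. The shares that fell were 8.09%, 6.85% and 23.8%. In bulk liver, more cells of a type and more RNA per cell cannot be told apart.

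**Figure D2:**
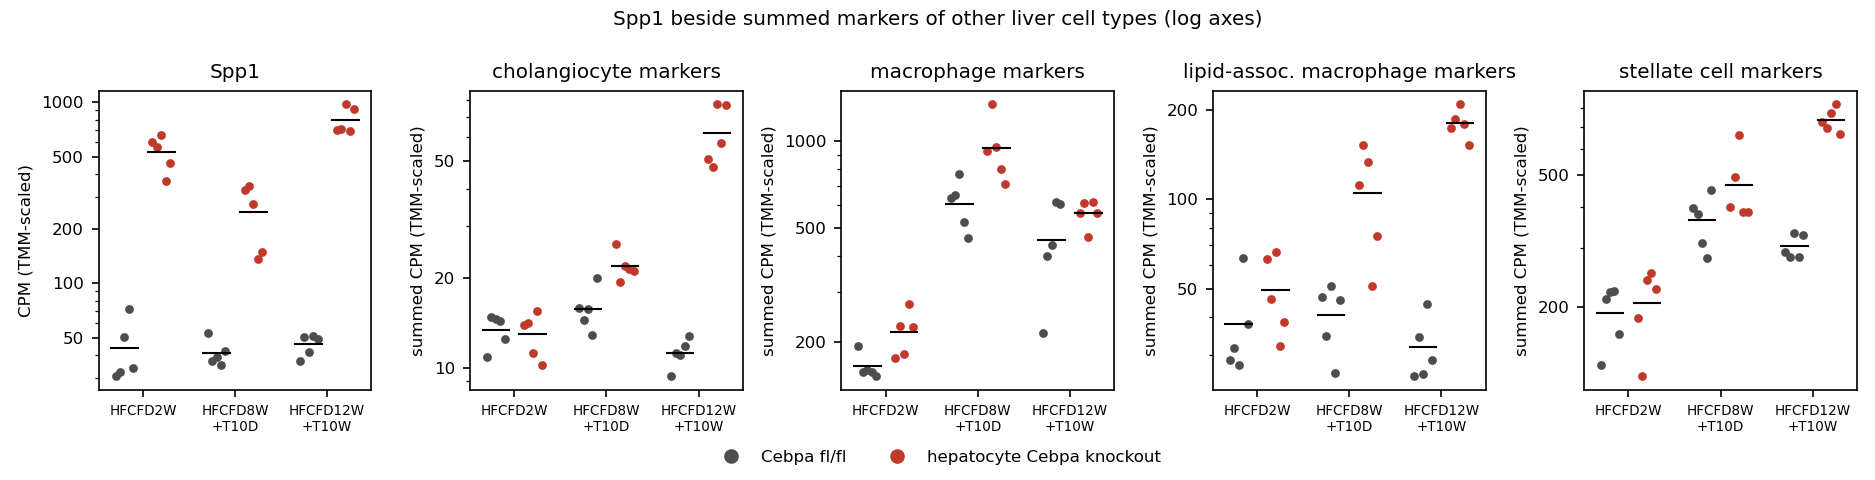
*Spp1* in CPM beside the summed CPM of markers of cholangiocytes, macrophages, lipid-associated macrophages and stellate cells in each liver (log axes, colours as above, line at the group mean). In HFCFD2W *Spp1* separated the genotypes while the sums of all 4 lists overlapped, though 3 of 8 macrophage markers rose there. In HFCFD12W+T10W the knockout sums lay above all controls for every list but the macrophage one.

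*Cd44*, the hyaluronan receptor found on leukocytes and many activated cells, lies at chr2:102811141-102901665 on the minus strand. In HFCFD2W it was at 5.19, 4.75, 5.83, 3.31 and 3.83 CPM in controls and at 6.98, 7.51, 8.65, 9.45 and 7.11 CPM in knockouts. In HFCFD8W+T10D the values were 22.5, 24.4, 25.7, 15.1 and 17.99 CPM against 32.4, 54.5, 35.8, 27.4 and 28.7 CPM, the second knockout mouse standing well above the rest. In HFCFD12W+T10W they were 5.94, 13.9, 15.3, 15.5 and 18.5 CPM against 30.9, 39.1, 30.2, 27.96 and 32.6 CPM. The genotypes did not overlap in any experiment. Of the 8 macrophage markers 3, 5 and 5 rose in the same comparisons, beside 8.6%, 10.3% and 27.4% of all genes. In HFCFD12W+T10W 2 of them fell, *Timd4* (-2.72) and *Marco* (-2.35). Their summed level overlapped between genotypes in each experiment, and their part in the *Cd44* result was not tested. The log2 fold changes were 0.79 (SE 0.17, adjusted p = 0.00726), 0.78 (SE 0.20, adjusted p = 0.0182) and 1.26 (SE 0.21, adjusted p = 3.30e-04). With single mice left out, the value of HFCFD8W+T10D ranged from 0.57 to 0.86 and kept its call. The effects of different experiments were not shown to differ (adjusted p of 0.336 or more for each pair).

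The level of *Cd44* also moved with the experiment. The control livers of HFCFD8W+T10D (21.1 ± 4.46 CPM, n = 5) were above the knockout livers of HFCFD2W (7.94 ± 1.07 CPM, n = 5), and macrophage markers summed to 460.9 to 770.7 CPM in the former and 176.2 to 272.2 CPM in the latter. Likewise, the knockout livers of HFCFD12W+T10W and HFCFD8W+T10D, the highest in the order, did not differ beyond their spread (adjusted p = 0.757). The 3 genes whose centred log2 CPM profile over the 30 libraries was closest to that of *Cd44*, by root-mean-square (RMS) difference, were the complement gene *C1qb* (0.22), the myeloid adaptor *Tyrobp* (0.26) and the lymphoid factor *Ikzf1* (0.26), where the median gene was at 1.16.

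*Itgav*, the α subunit shared by the Arg-Gly-Asp binding receptors, lies at chr2:83724397-83806916 on the plus strand. It did not differ between genotypes in HFCFD2W, with 30.1, 27, 26.3, 26.1 and 25.96 CPM in controls and 32.2, 27.1, 24.3, 26.7 and 29.5 CPM in knockouts (log2 fold change 0.05, SE 0.09, adjusted p = 0.747). In HFCFD8W+T10D the controls spanned 29.7 to 40.5 CPM and the knockouts 32.2 to 53.2 CPM, with overlap (0.29, SE 0.14, adjusted p = 0.158). The HFCFD12W+T10W controls were at 29.2, 28.9, 28.01, 27.9 and 30.8 CPM and the knockouts at 46.9, 54.7, 47.4, 49.1 and 52.7 CPM. Here the genotypes were separated, and *Itgav* rose (0.84, SE 0.07, adjusted p = 9.93e-07). The genotype effect was larger in HFCFD12W+T10W than in HFCFD8W+T10D by 0.51 (SE 0.14, adjusted p = 0.0177) and than in HFCFD2W by 0.75 (SE 0.14, adjusted p = 2.67e-04, a test that 30.7% of genes passed).

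*Itgb1* (chr8:128685654-128733200, plus strand), which pairs with αv, α4 and α9 and with many other α subunits, was the most abundant receptor gene in every group. Its mean TPM ran from 51.7 ± 3.46 (n = 5) in the controls of HFCFD2W to 101.0 ± 4.75 (n = 5) in the knockouts of HFCFD12W+T10W. In CPM it spanned only 181.0 to 280.4 over all 30 livers. Between the genotypes the log2 fold change was 0.11 (SE 0.06, adjusted p = 0.269), 0.29 (SE 0.11, adjusted p = 0.0936) and 0.26 (SE 0.07, adjusted p = 0.00876) in the 3 experiments. It therefore rose only in HFCFD12W+T10W by these fits, where controls at 181.8 to 218.4 CPM and knockouts at 216.7 to 239.6 CPM still touched, and its effects did not differ between experiments (adjusted p of 0.341 or more). In the joint fit of all libraries *Itgb1* and *Itgav* also passed in HFCFD8W+T10D (adjusted p = 0.00865 and 0.0333).

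*Itgb5*, the β subunit of the vitronectin and OPN receptor αvβ5, lies at chr16:33829665-33949338 on the plus strand. In HFCFD2W its values were 66.5, 87.4, 75.7, 72.7 and 68.4 CPM in controls and 61.5, 62.4, 74.8, 74.2 and 68.6 CPM in knockouts, which overlapped. In HFCFD8W+T10D it was at 91.4, 87.0, 83.7, 76.6 and 87.0 CPM against 132.1, 122.0, 149.9, 115.1 and 109.0 CPM. In HFCFD12W+T10W it was at 72.8, 72.9, 65.4, 62.4 and 70.8 CPM against 116.9, 132.1, 120.2, 134.6 and 121.6 CPM. In both inducible experiments every knockout liver was above every control. The log2 fold changes were -0.12 (SE 0.09, adjusted p = 0.391), 0.58 (SE 0.10, adjusted p = 0.00302) and 0.91 (SE 0.07, adjusted p = 7.43e-07), and the second ranged from 0.50 to 0.61 with single mice left out. *Itgb5* was the receptor gene with the clearest contrast between the constitutive and the inducible experiments. Its effect exceeded that of HFCFD2W by 0.68 after the short tamoxifen course (SE 0.12, adjusted p = 4.25e-04) and by 0.98 after the long one (SE 0.12, adjusted p = 1.89e-06). These experiments also differ in Cre driver, tamoxifen and time on the diet. The closest profiles to *Itgb5* were those of the lysosomal protease *Ctsd* (RMS 0.16), the syndecan adaptor *Sdcbp* (0.18) and the endosomal syntaxin *Stx7* (0.19), with a median of 0.55 over all genes.

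*Itgb8* (chr12:119158022-119238802, minus strand), the β subunit of αvβ8, was scarce outside 1 group. It had 1 to 5 counts in controls and 3 to 11 in knockouts of HFCFD2W, and 2 to 10 against 6 to 19 in HFCFD8W+T10D, too few to pass the filter on low counts. In HFCFD12W+T10W the controls were at 1.07, 0.566, 0.804, 0.459 and 1.01 CPM and the knockouts at 8.10, 6.27, 11.5, 9.38 and 8.73 CPM. These knockout livers stood above those of all other groups, and the fitted log2 fold change was 3.51 (SE 0.24). The gene passed the filter on low counts through that group, so no weight is given to its test. Without the filter, the genotype effect was 1.41 in HFCFD2W and 1.05 in HFCFD8W+T10D (adjusted p = 0.0714 and 0.147). By limma on the authors' TMM table *Itgb8* passed in HFCFD2W (adjusted p = 0.0461) but not in HFCFD8W+T10D (adjusted p = 0.0858). In the joint fit it passed in both (adjusted p = 0.0302 and 0.0271). *Itgb8* entered the joint fit through the HFCFD12W+T10W knockouts, where it was high. No weight is therefore given to its calls in that fit, and no test of a difference between experiments is drawn from it.

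*Itgb6*, the β subunit of the epithelial integrin αvβ6, lies at chr2:60598292-60722643 on the minus strand. It had 20, 13, 34, 13 and 36 counts in the knockout livers of HFCFD12W+T10W and 0 counts in all 5 of their controls. Measured against a floor of 3 counts per library, it was at least 5.87-fold higher. In the other 4 groups no liver had more than 3 counts, which is at that floor, and no fold is given. Cholangiocyte and lipid-associated macrophage markers rose in the same livers, as given above for *Spp1*, and their part in the *Itgb6* and *Itgb8* values was not tested.

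*Itgb3* (chr11:104608000-104670476, plus strand), the β subunit of αvβ3 and, with *Itga2b*, of the platelet fibrinogen receptor, was tested in all 3 experiments and passed in none. The log2 fold changes were 0.48 (SE 0.21, adjusted p = 0.147), -0.58 (SE 0.42, adjusted p = 0.387) and 0.31 (SE 0.21, adjusted p = 0.248). In HFCFD8W+T10D the controls were at 23.4, 7.89, 6.02, 4.67 and 12.97 CPM and the knockouts at 6.18, 7.97, 8.44, 11.1 and 2.94 CPM. Replicates 1 and 5 of the controls were high. Of the platelet genes, *Itga2b* had 79 and 43 counts in these livers and 17 to 34 in the other controls, *Ppbp* had 305 and 43 against 3 to 25, *Pf4* had 79 and 15 against 7 to 11, and *Gp9* had 17 and 2 against 1 to 3. All 4 were high in replicate 1, and *Gp9* was not in replicate 5. *Itga2b* was also the second closest profile to *Itgb3* over all 30 libraries (RMS 0.49, median gene 0.93), after *Ifitm1* (0.45). Without control replicate 1, the *Itgb3* difference was -0.11.

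The β subunits that can pair with αv were compared within each liver as shares of the summed TPM of *Itgb1*, *Itgb3*, *Itgb5*, *Itgb6* and *Itgb8*. *Itgb1* and *Itgb5* together held nearly all of it. In HFCFD12W+T10W the share of *Itgb5* was 33.6% ± 3.14 (n = 5) in controls and 43.1% ± 1.58 (n = 5) in knockouts, without overlap, while that of *Itgb1* was 64.9% ± 3.17 and 54.3% ± 1.62. In HFCFD2W the order was the other way round, with *Itgb5* at 34.3% ± 1.90 in controls and 31.0% ± 1.46 in knockouts, which overlapped. In HFCFD8W+T10D *Itgb5* was at 37.3% ± 1.86 and 42.6% ± 3.81, also with overlap. *Itgb8* reached 0.917% ± 0.194 and *Itgb6* 0.417% ± 0.215 in the knockouts of HFCFD12W+T10W, so that both remained minor transcripts in whole liver. The *Itgb6* share depends on an effective length that RSEM estimated between 873.8 and 4602.8 bases over the libraries, and with 1 fixed length per gene it was 0.969%.

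**Figure D3:**
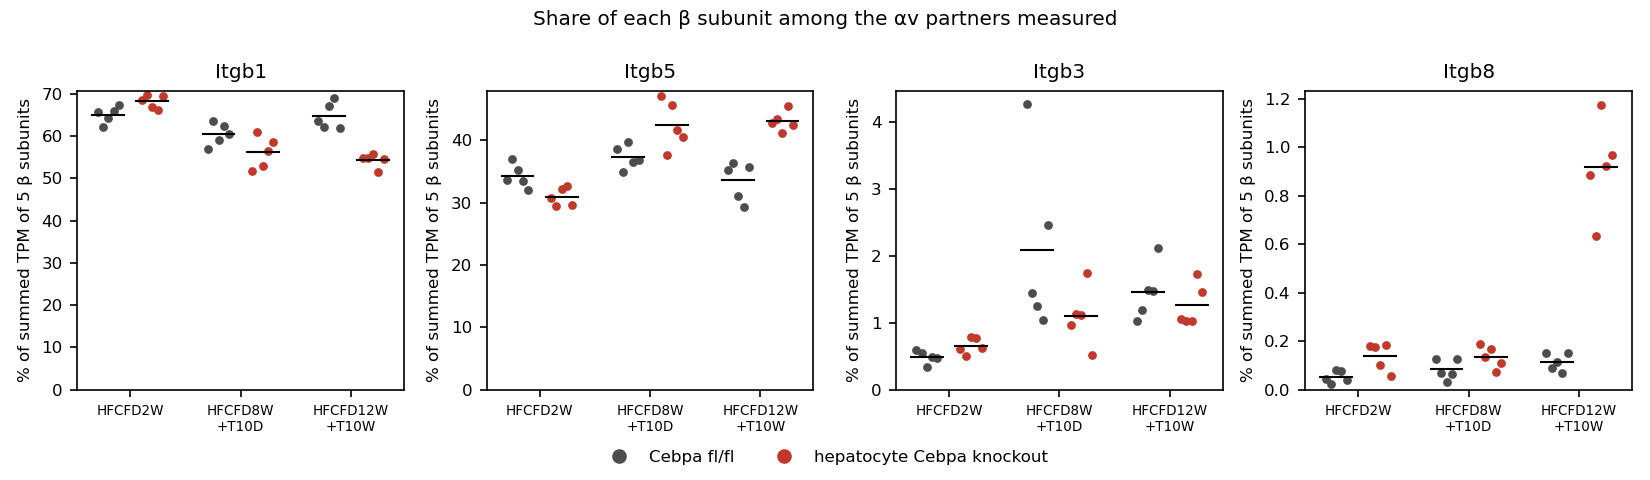
Share of 4 β subunits in the summed TPM of 5 β subunits that can pair with αv, in percent, for each liver (colours as above, line at the group mean). The share of *Itgb5* lay at 41.3% to 45.5% in the knockout livers of HFCFD12W+T10W and at 29.4% to 36.5% in their controls.

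*Itga4* and *Itga9* encode the α subunits that, with β1, bind OPN at the stretch beside the Arg-Gly-Asp motif. *Itga4*, at chr2:79255426-79333123 on the plus strand, encodes a leukocyte integrin subunit that binds VCAM1. In HFCFD2W it had 3 to 12 counts in controls and 5 to 20 in knockouts, with overlap (log2 fold change 0.53, SE 0.35, adjusted p = 0.337). In HFCFD8W+T10D it was at 6.48, 4.40, 4.40, 3.96 and 4.42 CPM against 8.42, 17.3, 11.4, 5.45 and 10.4 CPM, where knockout replicate 4 lay within the controls and replicate 2 far above the others. It rose by 1.19 on the log2 scale (SE 0.27, adjusted p = 0.0104), and by 0.93 to 1.34 with single mice left out. Its HFCFD12W+T10W values were 2.37, 3.06, 4.48, 4.59 and 4.04 CPM against 12.1, 15.6, 9.27, 9.75 and 13.1 CPM. There the genotypes were fully separated (1.73, SE 0.20, adjusted p = 1.55e-05).

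*Itga4* lay closest to the leukocyte phosphatase *Ptprc* (RMS 0.27), the kinase *Syk* (0.33) and *Plek* (0.34), where the median gene was at 1.33. *Ptprc* was the 1 of 4 tested markers of leukocytes other than macrophages that rose in HFCFD8W+T10D (1.25, adjusted p = 0.00536), where *S100a8* (-0.20), *S100a9* (-0.06) and *Cd79a* (0.45) did not pass. The summed markers overlapped there, at 14.2 to 41.9 CPM in controls and 24.8 to 68.9 CPM in knockouts. They ran from 11.5 to 25.8 CPM in the controls and from 48.5 to 100.4 CPM in the knockouts of HFCFD12W+T10W. Their part in the *Itga4* result was not tested. *Cerkl*, on the opposite strand, shares exon sequence with *Itga4* and had 0 to 27 counts.

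*Itga9* lies at chr9:118606690-118901003 on the plus strand. It was at 10.8 ± 1.33 CPM in controls and 13.03 ± 2.07 CPM in knockouts of HFCFD2W (n = 5 each), with overlap (0.27, SE 0.13, adjusted p = 0.190). In HFCFD8W+T10D it was at 28.3, 25.2, 25.7, 24.6 and 23.9 CPM against 35.3, 56.5, 43.0, 29.8 and 34.9 CPM. With 10 weeks of tamoxifen it was at 11.9, 22.9, 22.2, 19.7 and 28.1 CPM against 43.7, 43.8, 36.6, 46.7 and 43.9 CPM. The knockout livers were above all controls in both. The log2 fold changes were 0.66 (SE 0.16, adjusted p = 0.0122) and 1.08 (SE 0.17, adjusted p = 1.79e-04), and the former ranged from 0.49 to 0.74 with single mice left out. The effect in HFCFD12W+T10W exceeded that in HFCFD2W by 0.77 (SE 0.24, adjusted p = 0.0151). For *Itga4* the same difference was 1.16 (SE 0.47, adjusted p = 0.0591).

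**Figure D4:**
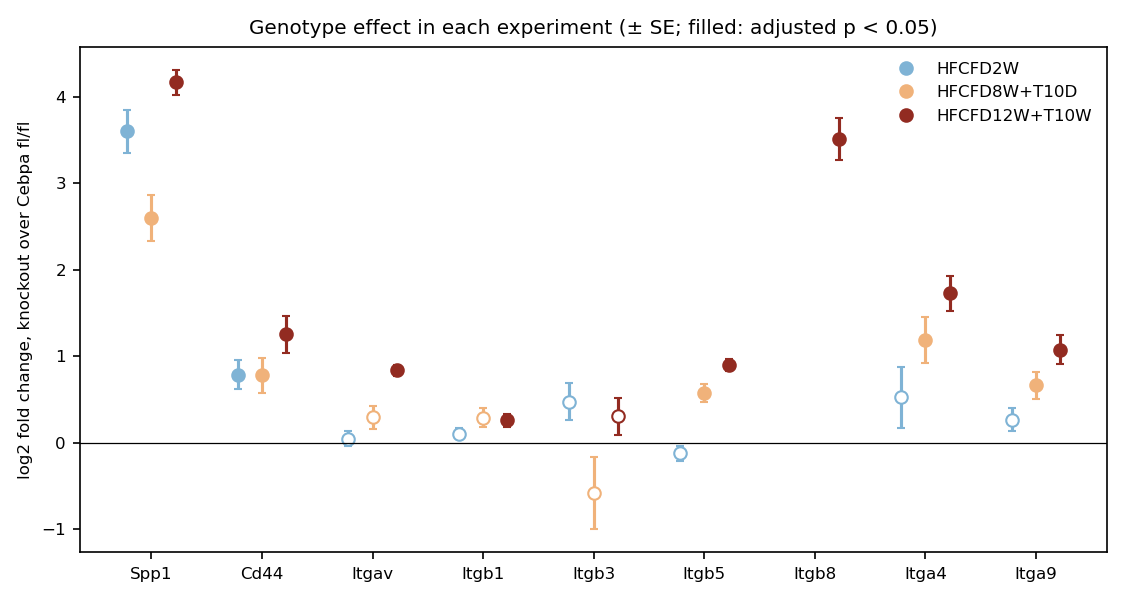
Log2 fold change of knockout over *Cebpa* fl/fl livers with its SE for each gene and experiment, filled where the edgeR adjusted p was under 0.05. *Spp1* and *Cd44* are filled in all 3 experiments, *Itgb3* in none, and *Itgb6*, whose controls were at 0 counts, is left out. *Itgb8* is shown for HFCFD12W+T10W only, where it passed the filter on low counts through the knockouts.

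The profiles closest to the other genes were also read. *Spp1* lay closest to the kinase *Pak6* (RMS 0.61), the sodium-glucose transporter *Slc5a1* (0.75) and the collagen receptor *Ddr1* (0.80), with a median gene at 1.86. *Itgb1* lay closest to actin regulators, the capping protein genes *Capza2* (0.11) and *Capzb* (0.11) and the Arp2/3 subunit *Arpc3* (0.11), with a median of 0.38. *Itgav* lay closest to *Snx1* (0.15), *Adam10* (0.16) and *Nfkb1* (0.16), and *Itga9* to *Itpripl2* (0.16), *Pip4k2a* (0.18) and *Wipf1* (0.20), with medians of 0.52 and 0.86. The comparison covered 12102 other genes of at least 1 CPM.

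The integrin subunits outside the chosen set were counted next, which does not mean that none of them binds OPN. The counts of this and the following lists stand beside 8.6%, 10.3% and 27.4% of all genes that rose and 8.09%, 6.85% and 23.8% that fell in the 3 experiments, and several lie near those shares. Genes scarce in controls could enter a tested set through the knockouts, as *Itgb4*, *Itga2*, *Mmp7* and *Tnc* did in HFCFD12W+T10W. *Mmp9*, *Fermt1* and *Vcan* were tested in that experiment only. Of the 18 other subunits, 9 were tested in HFCFD2W with 1 higher, 12 in HFCFD8W+T10D with 7 higher, and 14 in HFCFD12W+T10W with 12 higher and 1 lower. *Itgb2* and *Itgal*, leukocyte integrins, had the highest mean over all libraries, 9.89 and 6.18 TPM, although *Itga5* and *Itga1* were above both in HFCFD2W. The laminin receptor subunit *Itga6* rose in all 3 experiments, by 0.78, 1.99 and 2.19 on the log2 scale (adjusted p = 0.0236, 7.34e-04 and 1.15e-07). *Itgax*, a subunit of dendritic cells and lipid-associated macrophages, rose by 2.38 and 3.39 in the inducible experiments (adjusted p = 5.98e-04 and 3.21e-07). *Itgb4* and *Itga2*, epithelial laminin and collagen receptor subunits, rose by 3.52 and 3.14 in HFCFD12W+T10W (adjusted p = 1.27e-06 and 4.28e-05). Both passed the filter on low counts through the knockouts, with 28 to 60 and 22 to 44 counts. Their controls had 2 to 4 and 0 to 5 counts.

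Enzymes that cleave, cross-link or phosphorylate OPN were mixed. Of the 9 genes, 5, 6 and 8 were tested in the 3 experiments, with 0, 1 and 4 higher and 1, 0 and 3 lower. Thrombin (*F2*, mean 1024 TPM) and plasminogen (*Plg*, 984.7 TPM), both made by hepatocytes, were by far the most abundant and fell in HFCFD12W+T10W by 0.50 and 0.80 on the log2 scale (adjusted p = 2.79e-04 and 7.25e-05). The macrophage elastase *Mmp12* rose by 3.52 and 4.44 in the inducible experiments (adjusted p = 0.00168 and 3.39e-08). Matrilysin (*Mmp7*), which cleaves OPN, had 0 counts in all controls of HFCFD12W+T10W and 13 to 113 in the knockouts, at least 14.2-fold more (adjusted p = 5.35e-04). It passed the filter on low counts through those knockouts. The gelatinase *Mmp9* rose by 1.42 there (adjusted p = 0.0200), and the secretory-pathway kinase *Fam20c* fell by 0.27 in HFCFD2W (adjusted p = 0.0352).

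The other SIBLING glycoproteins, the family to which OPN belongs (*Ibsp*, *Dmp1*, *Dspp* and *Mepe*), had too few counts to test in any experiment, and their summed level was 0 CPM at the median of each group, with a highest value of 0.0871 CPM in a knockout liver of HFCFD12W+T10W. Of the 19 other ligands of these integrins, 13, 18 and 17 were tested, with 2, 2 and 11 higher and 1, 0 and 5 lower. The fibrinogen chains *Fga* (2110 TPM) and *Fgg* (2096 TPM) had the highest means over all libraries. Among ligands that changed, *Mfge8*, which bridges apoptotic cells to αvβ3 and αvβ5, rose by 0.98, 1.25 and 1.80 in the 3 experiments (adjusted p = 0.0131, 0.00137 and 8.02e-07). *Vcam1*, the α4β1 and α9β1 ligand, rose by 0.90 in HFCFD2W and 1.29 in HFCFD12W+T10W (adjusted p = 0.00273 and 1.36e-04). The matricellular *Ccn1* fell by 0.95 in HFCFD2W (adjusted p = 0.00361). *Tgfb1* rose by 0.74 in HFCFD8W+T10D and 0.67 in HFCFD12W+T10W (adjusted p = 0.0468 and 0.0138). In HFCFD12W+T10W the largest changes were those of the matrix genes *Tnc* (3.74, adjusted p = 3.29e-07), *Fbn1* (3.33, adjusted p = 8.32e-09) and *Svep1* (3.17, adjusted p = 3.38e-07), of which *Tnc* and *Svep1* encode α9β1 ligands. *Tnc* had 3 to 8 counts in those controls and 69 to 106 in the knockouts, and passed the filter on low counts through the latter. *Svep1* had 7 to 15 and 86 to 130 counts.

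Cytoplasmic partners of the integrins were counted in the same way. Of the 18 adhesion and signalling genes, 16, 17 and 18 were tested, with 0, 3 and 10 higher and 5, 1 and 5 lower. *Lims2* and *Ilk* had the highest mean over all libraries (38.4 and 31.1 TPM), although *Fermt2* was above both in the controls of HFCFD2W. The scaffold *Bcar1* and the adaptors *Pxn* and *Fermt2* fell in HFCFD2W (by 0.95, 0.44 and 0.43, adjusted p = 4.77e-05, 0.0107 and 0.00809). In HFCFD8W+T10D *Src* and the leukocyte kindlin *Fermt3* rose by 0.90 and 0.81 and *Fermt2* fell by 0.77 (adjusted p = 0.0291, 0.0484 and 8.78e-04). Among HFCFD12W+T10W livers the epithelial kindlin *Fermt1*, *Src* and the leukocyte parvin *Parvg* rose by 3.44, 2.13 and 2.11 (adjusted p = 1.17e-06, 1.55e-06 and 2.62e-05). *Fermt3* also rose there, by 1.39, while *Bcar1* and *Fermt2* fell by 0.45 and 0.43 (adjusted p = 4.42e-05, 0.00586 and 2.42e-04). *Pxn* rose in both inducible experiments, by 0.36 and 0.26 (adjusted p = 0.0409 and 0.0088).

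Of the 12 partners of CD44 and hyaluronan, 7, 8 and 9 were tested, with 0, 2 and 5 higher and 2, 1 and 4 lower. *Rdx*, a linker of CD44 to actin, and the hyaluronidase *Hyal2* were the most abundant (55.1 and 32.9 TPM). The growth factor receptor *Met*, for which CD44 is a coreceptor, fell by 0.30, 0.49 and 0.97 in the 3 experiments (adjusted p = 0.0341, 0.0105 and 7.27e-05). *Rdx* fell by 0.19 in HFCFD2W and 0.51 in HFCFD12W+T10W (adjusted p = 0.0463 and 1.87e-04). *Hmmr*, a hyaluronan receptor also expressed in dividing cells, rose by 1.19 and 3.29 in the inducible experiments (adjusted p = 0.0290 and 9.04e-06). The linker *Msn* rose by 1.00 in HFCFD8W+T10D and 1.09 in HFCFD12W+T10W (adjusted p = 0.00711 and 4.49e-05). The hyaluronan-binding proteoglycan *Vcan* and the linker *Ezr* rose by 4.25 and 1.89 in HFCFD12W+T10W (adjusted p = 1.26e-06 and 3.06e-05).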

How the data were processed

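Liver poly(A) RNA was sequenced from 30 male mice, 1 stranded library per mouse. The submitters' processing notes name Trimmomatic 0.36, STAR 2.5.1, Picard 1.84, RSEM 1.2.22 and DESeq2 (no version) and the build mm10, with no role or order. The deposited files hold RSEM expected counts per gene for each library and in 1 table, beside TPM and FPKM values, which the authors scaled by effective length and library. A further deposited table holds the authors' TMM-normalized signal for 15010 genes. A deposited RPKM table of filtered genes was not used.

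Expected counts, of which 3.25% were not whole, were rounded. Genotypes were compared within each experiment by edgeR's quasi-likelihood test (edgeR 4.0.16, R 4.3.3) after filterByExpr and TMM scaling, with Benjamini-Hochberg adjustment over all genes tested and a threshold of 0.05. Differences of genotype effects came from 1 fit of all 30 libraries. Printed CPM used TMM factors over all libraries, log2 CPM a prior count of 2, and the floor was 3 counts per library. Neighbouring groups were compared by exact permutation tests. Alternatives were DESeq2 1.42.0, upper quartile scaling, other filters, limma 3.58.1 on the authors' table (pseudocount 1), the joint fit, a replicate block and leaving out each mouse. The fits were tested on simulated data. Mice are the replicates, and p-values measure the spread between these mice only. Library totals limit the precision of genes with few counts, and the floor covers counting error only.

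The genes and lists were chosen with earlier results of these data known. Of each list, the 2 genes highest by TPM and up to 3 with the largest change past the threshold in each experiment were named, and for each OPN gene the 3 genes of closest profile. 2 symbols of the lists were replaced by their current names. Promoter windows are from RefSeq (GRCm38.p6), gene models and the *Spp1* coding sequence from GENCODE M21.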

Additional observations from a re-analysis of the deposited data

Results flagged for a closer look

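Within groups, a mouse stood apart from the other 4 in 6 of 55 gene and group combinations checked by Dixon's criterion, which chance gives in about 1 of 20. *Cd44* was low in *Cebpa* fl/fl replicate 1 of HFCFD12W+T10W (5.94 CPM). *Itgav* was high in *Cebpa* fl/fl replicate 1 of HFCFD2W (30.1 CPM). *Itga4* was low in *Cebpa* fl/fl replicate 2 of HFCFD2W (0.445 CPM, 3 counts) and high in *Cebpa* fl/fl replicate 1 of HFCFD8W+T10D (6.48 CPM). *Itga9* was low in *Cebpa* ΔHep replicate 2 of HFCFD2W (9.46 CPM) and in *Cebpa* ΔHep,ERT2 replicate 3 of HFCFD12W+T10W (36.6 CPM).

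The genotype effect differed between experiments by an interaction test, on the log2 scale, in the cases below. *Itgb6* is left out, as it was at or under the floor in all groups but the HFCFD12W+T10W knockouts. *Itgb8* entered the fit through those knockouts, so its fitted differences are not counted as calls. Between HFCFD8W+T10D and HFCFD2W the genotype effect differed by 0.68 for *Itgb5* and by -1.02 for *Spp1*. Between HFCFD12W+T10W and HFCFD8W+T10D it differed by 0.51 for *Itgav* and 1.54 for *Spp1*. Between HFCFD12W+T10W and HFCFD2W it differed by 0.98 for *Itgb5*, 0.75 for *Itgav* and 0.77 for *Itga9*. Of all 12964 genes, 11.2%, 10.5% and 30.7% passed in these comparisons, in the same order. The fitted differences of *Itgb8*, given with no weight, were 2.42 between HFCFD12W+T10W and HFCFD8W+T10D and 2.05 between HFCFD12W+T10W and HFCFD2W. These comparisons share libraries, and Cre line, tamoxifen, time on the diet and batch cannot be told apart in those that involve HFCFD2W. Between HFCFD12W+T10W and HFCFD8W+T10D, length of the tamoxifen course, time on the diet and batch cannot be told apart either.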

How the results depend on the processing

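The numbers of OPN genes higher in knockouts moved with the threshold, the block and the joint fit. In HFCFD2W the count was 1 with a fold over 2 and 1 with a replicate block, and 2 to 3 with single mice left out. In HFCFD8W+T10D it was 2 with a fold over 2, 2 at an adjusted p under 0.01, 8 in the joint fit of all libraries (which tests *Itgb8* too, through the HFCFD12W+T10W knockouts), and 5 to 6 with single mice left out. In HFCFD12W+T10W it was 9 with each mouse left out, with *Itgb6* and *Itgb8* counted. The shares of all genes with a fold over 2 are given above. For the other settings no such share was taken, so these counts cannot be set against all genes. Replicate numbers were not taken as pairs. Correlations of same-numbered deviations ran from -0.23 to 0.07, -0.10 to 0.15 and -0.09 to 0.16 in the 3 experiments. So few mice show no pairing but cannot exclude it. With that block *Cd44* in HFCFD2W was at 0.88 (adjusted p = 0.0601). Single mice moved *Itga9* in HFCFD2W past the threshold (0.36, adjusted p = 0.0427) and *Itgav* in HFCFD8W+T10D (0.37, adjusted p = 0.0488), and turned *Itgav* in HFCFD2W, which ranged from -0.0066 to 0.10. The difference of *Cd44* effects between HFCFD8W+T10D and HFCFD2W was 0.032 under upper quartile scaling and -0.21 to 0.079 with single mice left out. That of *Itgb1* between HFCFD12W+T10W and HFCFD8W+T10D was 0.022 and -0.11 to 0.019. That of *Itga4* between HFCFD12W+T10W and HFCFD2W passed under upper quartile scaling (1.29) and DESeq2 (1.19, adjusted p = 0.0334). The cause was not tested. Genes under about 20 counts, such as *Itgb8* outside HFCFD12W+T10W, are limited by depth. With 1 fixed length per gene, chosen after seeing the data, the *Itgb6* share was 0.969%.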
